A study of Mus musculus with 6 samples.

Results

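The unfolded protein response and the amino acid response were followed through 10 genes in mouse embryonic fibroblasts treated with adenovirus for Tet3, an enzyme that oxidises 5-methylcytosine in DNA. The genes are the transcription factors Atf4, Ddit3 and Atf3, the stress targets Trib3, Chac1 and Asns, the endoplasmic reticulum (ER) chaperones Hspa5 and Hsp90b1, and Xbp1 and Herpud1. They were taken by name, and their probes were found by the transcript accession printed on the array: 11 probes for 10 of the 20652 genes that could be named. Both pathways start from a sensor. Unfolded protein in the ER lumen frees the sensors Perk (Eif2ak3), Ire1 (Ern1) and Atf6, while uncharged tRNA wakes Gcn2 (Eif2ak4). Perk and Gcn2 both phosphorylate the initiation factor eIF2alpha, which slows general translation but favours translation of Atf4, and Atf4 then switches on genes of amino acid supply and, with Ddit3, genes linked to cell death. Ire1 splices the Xbp1 mRNA, and spliced Xbp1 and cleaved Atf6 raise ER chaperones and the ER degradation machinery. Fibroblasts and neurons both run these pathways, and fibroblasts carry a heavy secretory load of matrix proteins.

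Total RNA from 6 samples was labelled with Cy3 and each sample was hybridised to 1 array. The groups were mouse embryonic fibroblasts (MEF) of E13.5 ICR embryos with no treatment in their own label, cells that the labels call neurons induced by Tet3 at 1, 3, 5 and 7 dpi, and primary neurons of E13.5. The treated cells had adenoviral supernatant with polybrene on successive days, and from day 3 after the second infection part of the medium was replaced by neuronal medium with forskolin. No virus without Tet3 was among the samples, so infection, Tet3 and the change of medium cannot be told apart, and the labels do not say whether cells of 3 and 5 dpi were taken before the change of medium on that day. The neurons are a separate primary culture and not an endpoint of the same cells.

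With 1 array in each group there was no test between groups, and every difference below compares a pair of arrays. Levels are log2 signals with 0 set at the 75th percentile of the array. The error model of the scanner software gave about 0.20 for a log2 difference of a member, which covers the array only and not the spread between cultures. All 11 member probes were well above background on all 6 arrays and no spot was saturated; 72.9% to 86.1% of all probes were well above background. The arrays came from 2 scans, MEF with 1 dpi and 3, 5 and 7 dpi with neurons, so a difference of 3, 5 or 7 dpi or of neurons from MEF cannot be told apart from the scan, while the steps from 3 to 5 and 5 to 7 dpi and the contrast of 7 dpi with neurons lie within 1 scan. The level of Tet3 was -0.29 in MEF, 1.07, 1.66 and 2.53 at 1, 3 and 5 dpi, 0.03 on the array labelled 7 dpi and -0.76 in neurons. On that measure the array labelled 7 dpi stood close to MEF, and "7 dpi" below means the array with that label.

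Marker lists for other cell types also differed between the arrays. The summed linear level of 7 macrophage markers, in units of the 75th percentile, was 220.2 in MEF, 29.6, 11.7, 2.19 and 1.73 at 1 to 7 dpi and 1.86 in neurons. All 7 were well above background except Mrc1 and Stab1 at 7 dpi. The sum of 8 fibroblast markers was 301 to 481 on the MEF and Tet3 arrays and 21.0 in neurons, and that of 8 neuron markers was 3.17 in MEF, 7.83 to 17.6 on the Tet3 arrays and 82.1 in neurons. The sum of 6 astrocyte and choroid plexus markers was 103 in neurons and at most 2.06 elsewhere, where Mlc1 and Ttr were not well above background, and that of 6 skeletal muscle markers was 10.8 at 7 dpi against 0.316 in MEF. The 4 endothelial markers summed to 2.14 to 2.99 on all arrays, and the 4 plasma cell markers to 0.409 to 2.13. In such bulk RNA, fewer cells of a type and less RNA per cell cannot be told apart, and the part of these cells in the differences below was not tested.

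The promoters of the 10 genes were searched for the elements through which these pathways are known to act, to show which members share an element. RefSeq windows of 300 bases (250 before the gene start and 50 after it, build GRCm38.p6) were found for all 10, and both strands were read. The ER stress response element ERSE, "CCAAT", 9 free bases and "CCACG", is bound by Atf6 and Xbp1 together with NF-Y. It was present in 0.119% of 32851 promoter windows (39 windows) and in 2 of the 10 members, Hspa5 at 1 place and Hsp90b1 at 2 places. Its relative ERSE-II, "ATTGG", 1 free base and "CCACG", was in 0.0365% of windows (12) and in Herpud1. The composite site TGATGNAA, bound by Atf4 with a C/EBP partner, was in 3.97% of windows (1304) and in 5 members, Atf3, Trib3, Chac1, Asns and Herpud1. The cyclic AMP element TGACGTCA (1.79% of windows) and the element TGACGTGG (0.676%) were in no member window. Atf4, Ddit3 and Xbp1 had none of the 5 motifs in these windows. No motif overlapped another in the members. A match of letters is a description and not a measured binding site.

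The stretches that carry the matches are given 5′ to 3′ along the gene, with the motif in capitals; for a motif read on the other strand the capitals are its reverse complement. They show the ERSE of the chaperones, the paired elements of Herpud1, and the composite sites of Chac1, Asns and Atf3.
Hspa5, chr2:34771995-34772073, plus strand, ERSE 65 to 47 bases before the start: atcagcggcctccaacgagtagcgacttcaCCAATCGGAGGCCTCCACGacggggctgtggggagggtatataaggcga
Hsp90b1, chr10:86705503-86705686, minus strand, ERSE 212 to 194 and, reversed, 107 to 89 bases before the start: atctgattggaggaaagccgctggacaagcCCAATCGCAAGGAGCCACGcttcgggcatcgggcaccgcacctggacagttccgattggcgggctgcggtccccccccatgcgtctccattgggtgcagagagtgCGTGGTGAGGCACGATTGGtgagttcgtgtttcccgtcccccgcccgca
Herpud1, chr8:94386287-94386417, plus strand, composite site reversed 112 to 105 and ERSE-II 52 to 42 bases before the start: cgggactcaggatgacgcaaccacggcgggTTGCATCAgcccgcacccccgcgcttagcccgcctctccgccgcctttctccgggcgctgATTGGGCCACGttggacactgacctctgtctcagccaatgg
Chac1, chr2:119351019-119351086, plus strand, composite site reversed 193 to 186 bases before the start: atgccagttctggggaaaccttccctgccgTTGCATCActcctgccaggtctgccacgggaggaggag
Asns, chr6:7693210-7693262, minus strand, composite site 23 to 16 bases before the start: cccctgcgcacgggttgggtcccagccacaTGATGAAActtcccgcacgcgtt
Atf3, chr1:191183406-191183473, minus strand, composite site reversed 110 to 103 bases before the start: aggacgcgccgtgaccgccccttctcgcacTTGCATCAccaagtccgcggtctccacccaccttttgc
The match in Trib3 lies 15 to 22 bases after the start (chr2:152344039-152344046, minus strand), reversed, and reads TTACATCA.

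The 10 genes did not move as 1 block over the Tet3 arrays. Ddit3 stood above MEF from 1 to 5 dpi, Chac1 was high at 3 dpi alone, and Atf3 was lower at each time after 1 dpi. The chaperones and Herpud1 had their highest level at 5 dpi. With median centring Hspa5 was highest at 1 dpi and Herpud1 in MEF, though 5 dpi was still the highest Tet3 array for Herpud1. Atf4 and Xbp1 stayed within 0.35 and 0.24 of themselves over the 4 Tet3 arrays, against ranges of 2.76 for Atf3 and 2.44 for Chac1. In neurons all 10 were below MEF (9 of 10 after quantile normalization, where Atf3 was 0.05 above), 7 of them at least 2-fold, and Trib3 by 52.3-fold.

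**Figure D1:**
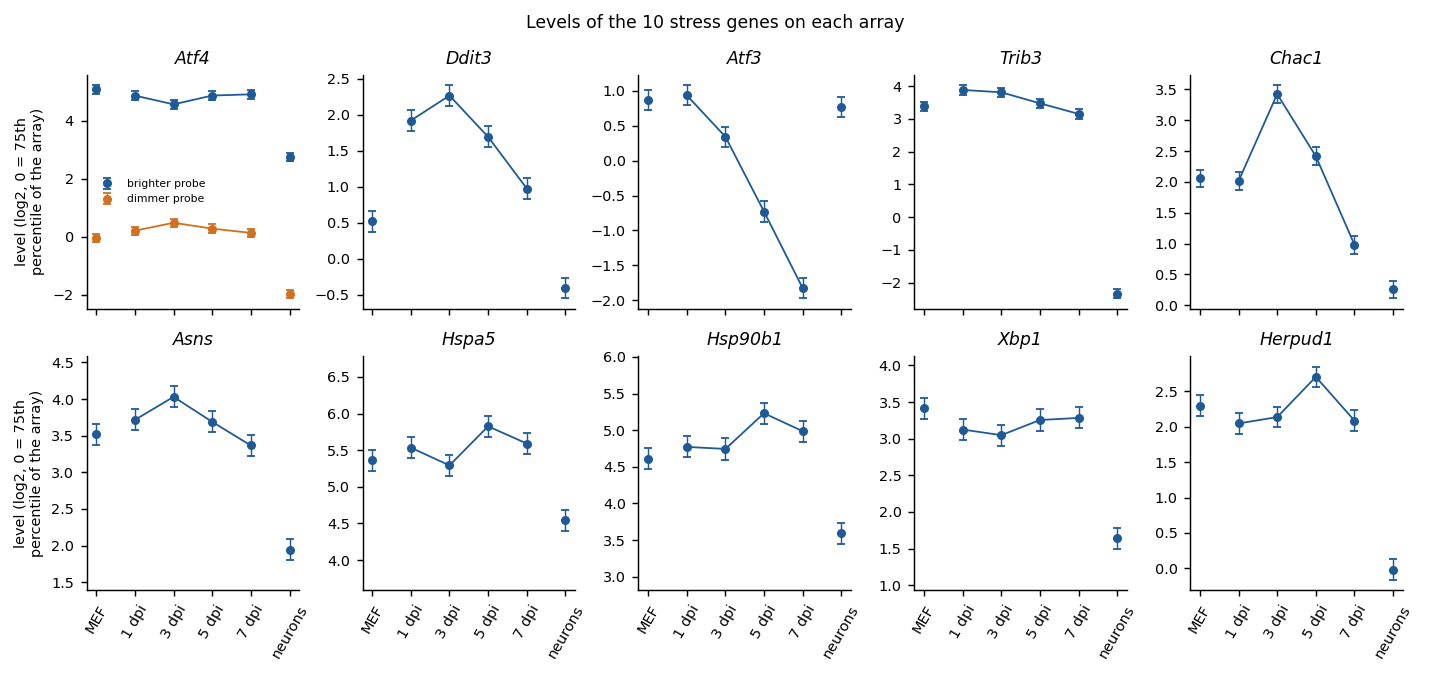
Level of each gene on each of the 6 arrays, as log2 signal with 0 at the 75th percentile of the array; each panel has its own vertical range. Points are single arrays, bars are the scanner software's error of a level, and lines join the 4 Tet3 arrays; Ddit3 and Chac1 are highest at 3 dpi, Hspa5, Hsp90b1 and Herpud1 at 5 dpi (Hsp90b1 alone of these 3 with median centring), and Atf3 is lowest at 7 dpi.

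Atf4 (NM_009716) is the transcription factor at the junction of both pathways, controlled largely at translation. Its brighter probe read 5.08 in MEF, 4.87, 4.57, 4.87 and 4.91 at 1, 3, 5 and 7 dpi and 2.76 in neurons. The Tet3 arrays were below MEF on this probe by 0.17 to 0.52, and neurons stood apart at 5.02-fold lower. The dimmer probe read -0.05, 0.21, 0.48, 0.28, 0.14 and -1.98 in the same order. On it the Tet3 arrays were slightly above MEF, so the probes disagreed in sign at every time after infection but both put neurons far lower (by 2.33 and 1.93).

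Ddit3 (NM_007837, also called Chop), a factor induced through Atf4 and tied to cell death under lasting stress, had levels of 0.52 in MEF, 1.92, 2.27, 1.69 and 0.97 at 1 to 7 dpi and -0.41 in neurons. The first 3 times were high and 7 dpi was in between. It was 2.64-fold above MEF at 1 dpi, a difference within 1 scan, then 3.35-fold at 3 dpi and 2.25-fold at 5 dpi, and 0.45 above on the log2 scale at 7 dpi. With arrays centred on their median the difference at 5 dpi was 0.74, under the 2-fold mark, and that at 7 dpi was -0.01.

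Atf3 (NM_007498), an early stress factor that Atf4 and many other signals can switch on, had levels of 0.86 in MEF, 0.94 and 0.34 at 1 and 3 dpi, -0.73 at 5 dpi, -1.83 at 7 dpi and 0.77 in neurons. MEF, 1 dpi and neurons lay close together, and 3, 5 and 7 dpi were each lower than the time before. It was 3.02-fold below MEF at 5 dpi and 6.46-fold below at 7 dpi. Within 1 scan it was lower by 1.07 from 3 to 5 dpi and by 1.10 from 5 to 7 dpi (0.98 with normexp background correction), and 7 dpi was 2.60 below neurons. Macrophage markers were also lower at each of these times, as given above, and their part was not tested.

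Trib3 (NM_175093), a pseudokinase made downstream of Atf4 and Ddit3, read 3.38 in MEF, 3.88, 3.81, 3.47 and 3.15 at 1 to 7 dpi and -2.33 in neurons. The fibroblast and Tet3 arrays lay close together, with 1 and 3 dpi above MEF by 0.50 and 0.43, and the neuron array was far below. The 52.3-fold gap between neurons and MEF was a log2 difference of -5.71, and over the other settings it lay between -6.54 (median centring) and -5.40 (normexp).

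Chac1 (NM_026929), an enzyme that degrades glutathione and a target of the Atf4 and Ddit3 axis, read 2.06 in MEF, 2.01 at 1 dpi, 3.42 at 3 dpi, 2.42 at 5 dpi, 0.98 at 7 dpi and 0.26 in neurons. The 3 dpi array alone was high, at 2.58-fold above MEF, and 7 dpi was 2.11-fold below MEF. The descent was within 1 scan, by 1.01 from 3 to 5 dpi (0.97 after quantile normalization and 0.99 with normexp) and by 1.43 from 5 to 7 dpi.

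Asns (NM_012055), which makes asparagine and is the classic amino acid response gene, read 3.52, 3.72, 4.03, 3.69 and 3.37 from MEF to 7 dpi and 1.94 in neurons. It was highest at 3 dpi, like Chac1, but by 0.51 and so under 2-fold. Trib3 and Asns had nearly the same within-scan steps, -0.34 from 3 to 5 dpi and -0.32 from 5 to 7 dpi for both genes.

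Hspa5 (NM_022310, BiP), the main ER-lumen Hsp70 and the brake on all 3 ER sensors, read 5.36 in MEF, 5.54, 5.29, 5.83 and 5.59 at 1 to 7 dpi and 4.55 in neurons. Hsp90b1 (NM_011631, Grp94), the ER-lumen Hsp90, read 4.61, 4.77, 4.74, 5.23, 4.99 and 3.59 in the same order. Both chaperones were highest at 5 dpi and lowest in neurons, but with median centring Hspa5 was highest at 1 dpi (0.10 above MEF). The step from 3 to 5 dpi was 0.53 for Hspa5 and 0.49 for Hsp90b1, and the step from 5 to 7 dpi was -0.23 and -0.24. Before scaling, the signal at 3 and 5 dpi was 99544 and 95791 for Hspa5 and 68014 and 63385 for Hsp90b1. The 75th percentile of those arrays was 2539 and 1688, so both steps up from 3 to 5 dpi appear only after scaling. Against MEF the 5 dpi levels were 0.46 and 0.62 higher, or 0.03 and 0.19 higher with median centring. No difference of either chaperone among MEF and the Tet3 arrays reached 2-fold.

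Herpud1 (NM_022331), a membrane protein of the ER degradation complex, read 2.30 in MEF, 2.05, 2.14, 2.70 and 2.09 at 1 to 7 dpi and -0.02 in neurons. It was highest at 5 dpi, 0.41 above MEF, but with median centring it was highest in MEF and its 5 dpi level 0.02 lower. Its steps were 0.57 from 3 to 5 dpi and -0.62 from 5 to 7 dpi. Its signal before scaling was 11164 at 3 dpi and 10999 at 5 dpi, so the step up appears only after scaling. Xbp1 (NM_013842), the factor made active by Ire1 splicing, read 3.41, 3.13, 3.05, 3.26 and 3.28 from MEF to 7 dpi and 1.64 in neurons, so that it was slightly below MEF on every Tet3 array. The splicing of its mRNA was not analysed here.

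**Figure D2:**
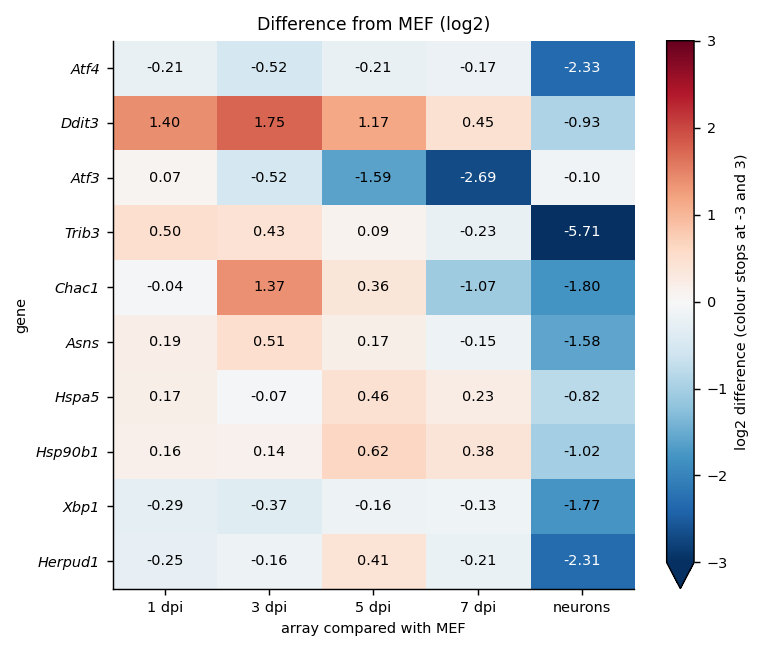
Log2 difference of each gene (rows) from MEF for each other array (columns), printed in the cell and coloured from blue (lower) to red (higher), with the colour scale ending at -3 and 3. Red is strongest for Ddit3 at 1 to 5 dpi and Chac1 at 3 dpi, and the neuron column is blue for every gene but Atf3, at -0.10.

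Set against all genes, the number of members past 2-fold on the Tet3 arrays was small. At 1 dpi Ddit3 was higher and no member was lower, where 5.41% of 16786 genes were higher and 5.96% lower. At 3 dpi Ddit3 and Chac1 were higher and none lower (background 16.0% and 9.98%). At 5 dpi Ddit3 was higher and Atf3 lower (18.7% and 7.93%), and at 7 dpi none was higher and Atf3 and Chac1 were lower (17.5% and 6.66%). Counts of 0 to 2 among 10 genes are too small to be set apart from those shares. The median difference of the members was 0.12, 0.03, 0.26 and -0.16 at 1, 3, 5 and 7 dpi, beside 0.07, 0.14, 0.17 and 0.16 for all genes measured. With median centring the members' median was -0.25 at 3 dpi and -0.17 at 5 dpi, beside -0.15 and -0.26 for all genes. Its sign there depends on the scaling. Its place against all genes does not, because median centring shifts every gene of a comparison by the same amount.

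The steps within 1 scan, counted after their values had been seen, had the same 2 members past 2-fold. From 3 to 5 dpi Atf3 and Chac1 were lower and none higher, where 8.60% of all genes were higher and 4.21% lower. From 5 to 7 dpi Atf3 and Chac1 were again lower and none higher (5.83% and 4.77%). Of the 10 members, 8 were lower at 7 dpi than at 5 dpi; Xbp1 and Atf4 differed by 0.03 and 0.04, values whose sign changed with median centring or normexp (Xbp1) and with the mean over probes (Atf4). The members' median step was -0.32 against 0.003 for all genes.

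In neurons the members stood lower as a group. Atf4, Trib3, Chac1, Asns, Hsp90b1, Xbp1 and Herpud1 were at least 2-fold below MEF, 7 of 10, where 15.7% of all genes were lower and 30.9% higher; no member was higher. The members' median was -1.67 beside 0.12 for all genes. Ddit3 was 0.93 lower and Hspa5 0.82 lower, both past 2-fold with median centring, and Hsp90b1 was 1.02 lower but 0.51 lower after quantile normalization. Atf3 differed by -0.10, or by 0.05 after quantile normalization. Fibroblast and macrophage markers were lower and neuron and astrocyte markers higher on this array, as given above, and their part was not tested.

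The contrast of 7 dpi with neurons lies within 1 scan but shares the neuron array with the contrast above, so it is not separate evidence. Of the 10 members, 8 were at least 2-fold higher at 7 dpi (13.8% of all genes) and Atf3 was lower (19.8% of all genes). The largest gap was that of Trib3 at 44.6-fold. On the log2 scale Atf3 followed at 2.60 lower, then Atf4 and Herpud1 at 2.16 and 2.10 higher. Chac1 was 0.72 higher, under 2-fold. The members' median was 1.41 against a median of all genes near 0. After quantile normalization Hspa5 and Hsp90b1 were 0.59 and 0.96 higher and no longer past 2-fold. At 7 dpi 8 of the 10 genes were nearer to their MEF level than to their neuron level, as were 61.0% of 16144 genes measured in both comparisons. The other 2 were Chac1 and, by a margin of under the array error, Atf3 (2.69 from MEF and 2.60 from neurons).

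**Figure D3:**
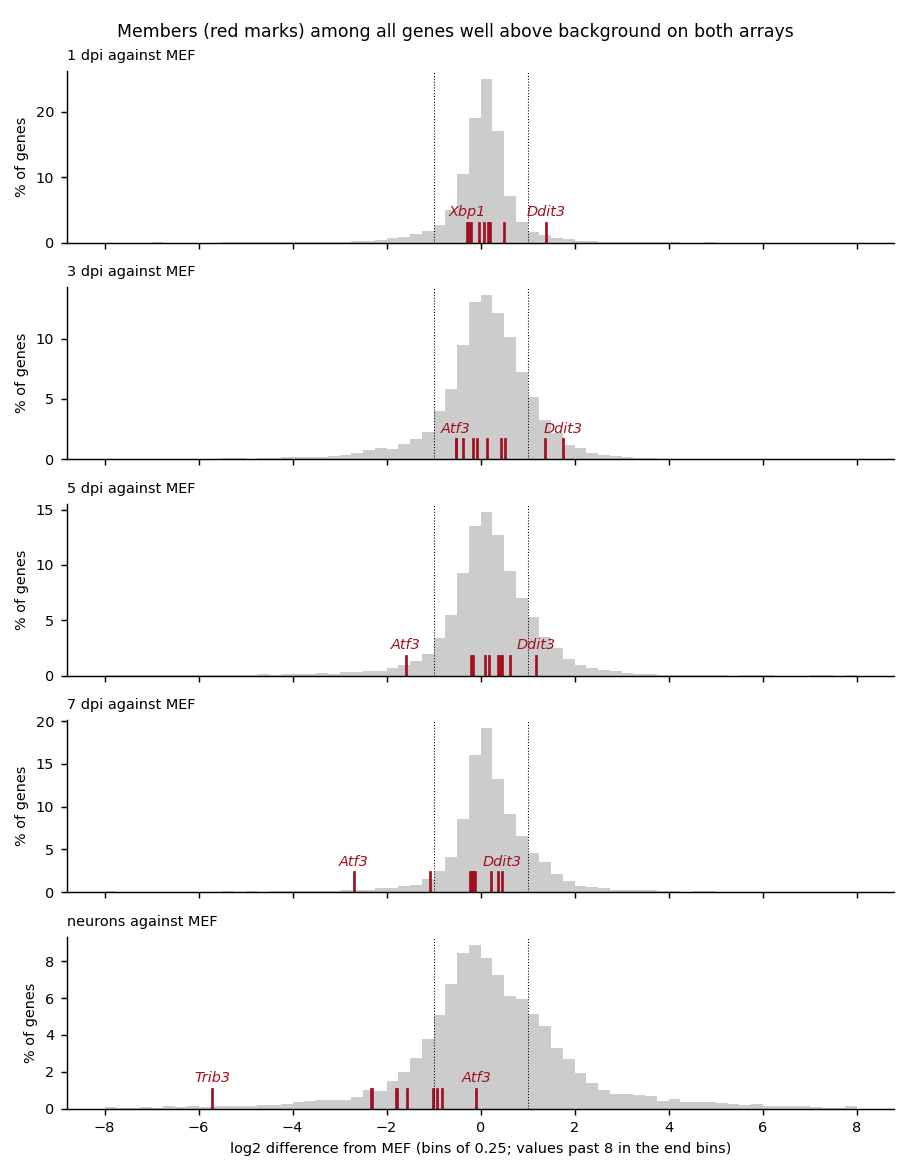
Distribution of the log2 difference from MEF over all genes well above background on both arrays (grey, percent of genes per bin of 0.25) for each other array, with the 10 members as red marks and the lowest and highest member named. Dotted lines mark 2-fold; the members lie inside the bulk of genes on the Tet3 arrays apart from Ddit3, Chac1 and Atf3, and on the neuron array they lie to the left, with Trib3 at -5.71.

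The other genes of the same pathways were read from 9 lists holding 116 genes, of which 114 were on the array (Pycr1 and Hspa1b were not). Those named for passing 2-fold were picked after their values were seen, and values not given as a fold are log2 differences. Of 18 ER chaperones and folding enzymes, 5 (27.8%) were at least 2-fold above MEF at 5 dpi, where 18.7% of all genes were. None was 2-fold below, where 7.93% of all genes were. With median centring 3 were above, and the share of all genes was not taken under that scaling. The 5 were Sdf2l1, a BiP cofactor (3.86-fold, or 1.95 on the log2 scale), Hyou1, a nucleotide exchange factor for BiP (1.74), the disulphide isomerase Pdia4 (1.73), Creld2 (1.40) and the oxidase Ero1a (1.02). The same list had 0, 2 and 1 such genes at 1, 3 and 7 dpi, with no gene 2-fold lower. Among all genes 5.41%, 16.0% and 17.5% were 2-fold higher at those times and 5.96%, 9.98% and 6.66% lower. The list's counts of higher genes were not above those shares. Its median difference was 0.24, 0.24, 0.52 and 0.23 at 1 to 7 dpi, highest at 5 dpi. With median centring the 4 medians were 0.17, -0.05, 0.09 and -0.23, highest at 1 dpi, so the time of the highest median depends on the scaling. The medians of all genes were then 0.0025, -0.15, -0.26 and -0.30, and 0.07, 0.14, 0.17 and 0.16 without that centring. Set against all genes, the list stood furthest above them at 5 dpi under both scalings. Calr, a lectin chaperone, was 0.89 above MEF at 5 dpi, and its partner Canx 0.51 below. The Hyou1 probe was dim, at -5.01 in MEF and -3.27 at 5 dpi, but well above background on every array.

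The steps within 1 scan use the same 5 dpi array, so they are no separate evidence of that level. From 3 to 5 dpi 15 of the 18 were higher (11 with median centring), with a median of 0.23 against 0.03 for all genes. From 5 to 7 dpi 15 of 18 were lower (13 after quantile normalization), with a median of -0.32 against 0.003. Sdf2l1 moved by 1.21 and then by -1.21, and the BiP co-chaperone Dnajb9 by 1.15 and then by -0.70. In the list of 14 genes of ER-associated degradation Derl3, a channel component for misfolded proteins, was 14.2-fold above MEF at 5 dpi. Its levels were -5.50 in MEF, -5.10, -3.91, -1.67 and -3.83 at 1 to 7 dpi and -3.26 in neurons. It was dim in MEF but well above background on every array, and its steps from 3 to 5 and 5 to 7 dpi were 2.24 and -2.16. Ubxn4 was 1.07 below MEF at 3 dpi and was the 1 gene of the list past 2-fold in that direction on a Tet3 array. Syvn1, Sel1l and Edem1 differed from MEF by 0.53, 0.09 and -0.66 at 5 dpi, and the list median was 0.03, 0.11 and 0.09 at 3, 5 and 7 dpi, or -0.26, -0.32 and -0.37 with median centring. ERSE was found in the promoter windows of 5 of 16 genes of the chaperone list (Calr, Canx, Creld2, Ero1b and Pdia6) and 2 of 12 of the degradation list (Derl3 and Syvn1). It was in 0.119% of all windows. Of the chaperone-list genes at least 2-fold above MEF at 5 dpi, only Creld2 was among those carriers. A link between the element and the levels was not tested.

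For 9 genes of serine, glycine and one-carbon metabolism the median gap to MEF was 0.50 at 1 dpi, 1.05 at 3 dpi, 0.25 at 5 dpi and 0.02 at 7 dpi. The median was also highest at 3 dpi with median centring, at 0.76. At 3 dpi 5 of the 9 (2 with median centring) were at least 2-fold higher, where 16.0% of all genes were: Mthfd1l (1.66), the mitochondrial serine hydroxymethyltransferase Shmt2 (1.56), Phgdh, the first enzyme of serine synthesis (1.26), Mtap (1.14) and Aldh18a1 (1.05). Psat1 and Psph, the next enzymes of serine synthesis, were 0.67 and 0.86 higher. From 3 to 5 dpi, within 1 scan, all 9 were lower, with a median of -0.63 against 0.03 for all genes. Phgdh and Mthfd1l passed 2-fold (-1.04 and -1.03), where 4.21% of all genes were 2-fold lower. The number past 2-fold was 1 after quantile normalization and 4 with median centring. With median centring the medians at 5 and 7 dpi were -0.18 and -0.44.

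The 13 genes of the aminoacyl-tRNA synthetase list, the tRNA exporter Xpot among them, had smaller differences, with medians of 0.33, 0.55, 0.38 and 0.06, or 0.26, 0.27, -0.05 and -0.40 with median centring. Yars alone passed 2-fold, at 3 dpi (1.22). At that time Aars was 0.33, Sars 0.74, Wars 0.36 and Gars 0.89 above MEF. The composite site was in the promoter windows of 5 of 9 genes of this list (Aars, Gars, Iars, Tars and Yars), where 3.97% of all windows had it. It was also in 5 of 17 genes of the further amino acid response targets below (Fgf21, Nupr1, Pck2, Slc7a11 and Vldlr). In the one-carbon list it was in 1 of 9 (Pycr1), and in the degradation list in 1 of 12 (Faf2). A link between the site and the levels was not tested.

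The list of 20 further amino acid response targets was mixed. Its median was 0.11, 0.25, 0.22 and -0.12 at 1 to 7 dpi (-0.04 and -0.21 at 3 and 5 dpi with median centring), with 3, 5, 5 and 2 of the 20 genes at least 2-fold higher and 0, 1, 2 and 2 lower. Among all genes 5.41%, 16.0%, 18.7% and 17.5% were higher and 5.96%, 9.98%, 7.93% and 6.66% lower, so most of these counts are near the background. Stc2, a secreted glycoprotein, was 2.38 above MEF at 1 dpi, 2.99 (7.92-fold) at 3 dpi, 2.82 at 5 dpi and 1.33 at 7 dpi, and Ddit4, an inhibitor of mTORC1 signalling, was 1.66, 1.62, 2.39 and 1.22 above. Gdf15, a stress hormone, was 1.29 and 1.60 above MEF at 3 and 5 dpi and 0.75 below it at 7 dpi. Fgf21, another stress hormone, was lower from 3 dpi on, by 1.05, 1.04 and 1.71. Sesn2 stayed within 0.38 of MEF on the Tet3 arrays, and the cystine transporter Slc7a11 differed by -0.81, 0.19, -0.52 and -0.99 at 1, 3, 5 and 7 dpi. From 5 to 7 dpi 18 of the 20 were lower, with a median of -0.47.

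Among 14 genes of the sensors and of eIF2alpha phosphorylation the changes were small, with medians of 0.25, 0.32, 0.33 and 0.08 (-0.10 and -0.38 at 5 and 7 dpi with median centring). Perk (Eif2ak3) was 1.00 below MEF at 3 dpi and 0.33 below at 7 dpi, and Ire1 (Ern1) was 1.00 above at 3 dpi and 0.60 above at 7 dpi. Atf6 was within 0.32 and Gcn2 (Eif2ak4) within 0.35 of MEF on the Tet3 arrays. Ppp1r15a, the Gadd34 subunit that leads the phosphatase to eIF2alpha, was 0.31, 0.76, 1.10 and 0.00 above MEF at 1, 3, 5 and 7 dpi, with a within-scan step of -1.10 at the end. Mbtps2, a protease that cleaves Atf6, was 1.19 above MEF at 5 dpi. Its probe was dim, at -5.52 in MEF and -4.33 at 5 dpi, but well above background on every array. With median centring 0 genes of this list were 2-fold above MEF at 5 dpi and 2 were 2-fold below.

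Stress lists outside the ER and amino acid pathways behaved differently from one another. Of 10 cytosolic heat shock genes, Hspb1 and Hspb8, small heat shock proteins, were 1.63 and 1.53 above MEF at 1 dpi and 2.45 and 1.89 at 3 dpi, and Hspa1a was 1.54 and 2.60 above; the signal of the Hspa1a probe may include its near-identical copy Hspa1b. Dnajb1 stayed within 0.15 of MEF and Hsph1 was 1.04 above at 5 dpi. The list median was 0.21, 0.34, 0.57 and 0.29 (-0.17 at 7 dpi with median centring). The 8 mitochondrial chaperones and proteases had medians of 0.42, 0.43, 0.33 and 0.26 (-0.10 and -0.20 at 5 and 7 dpi with median centring), and only Hspe1 passed 2-fold, at 5 dpi (1.03); Hspd1, Lonp1 and Clpp were 0.21, 0.80 and 0.52 above MEF then. The 8 oxidative stress genes had medians of -0.30, -0.24, -0.32 and -0.61. Among them Hmox1, the haem oxygenase that macrophages also express, was 2.06 below MEF at 7 dpi, Nqo1 was 2.19 above at 3 dpi, and Gclm and Gclc, which make glutathione, were 0.80 and 0.42 below at 7 dpi.

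In neurons 7 of the 9 lists had a median below MEF, and 15.7% of all genes were 2-fold lower. The median was -1.42 for the one-carbon genes (6 of 9 at least 2-fold lower, Mthfd2 most at -2.70), -1.19 for the amino acid targets (11 of 20 lower, Nupr1 most of those measured at -3.69), -1.14 for the synthetases (7 of 13, Eprs at -1.75) and -0.90 for ER-associated degradation (7 of 14, Edem1 at -2.06). Fgf21 was not well above background in neurons, and its value there is only a bound. ER chaperones had a median of -0.67 (7 of 18 lower, P4hb at -2.17), the sensors -0.39 (3 of 14, Perk at -1.65) and the mitochondrial list -0.55 (1 of 8, Hspa9 at -1.38). Phgdh, Psat1 and Psph were not lower, at 0.30, 0.21 and 0.08 above MEF, but with median centring all 9 one-carbon genes were below MEF. Derl3 was 2.24 above. The heat shock list was not lower at a median of 0.20 (Hspa1a 3.74 above and Bag3 1.13 below), and -0.63 with median centring. The oxidative list stood at 0.03, or -0.20 after quantile normalization and -0.80 with median centring, with Gclc 1.80 above MEF and Hmox1 2.17 below.

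**Figure D4:**
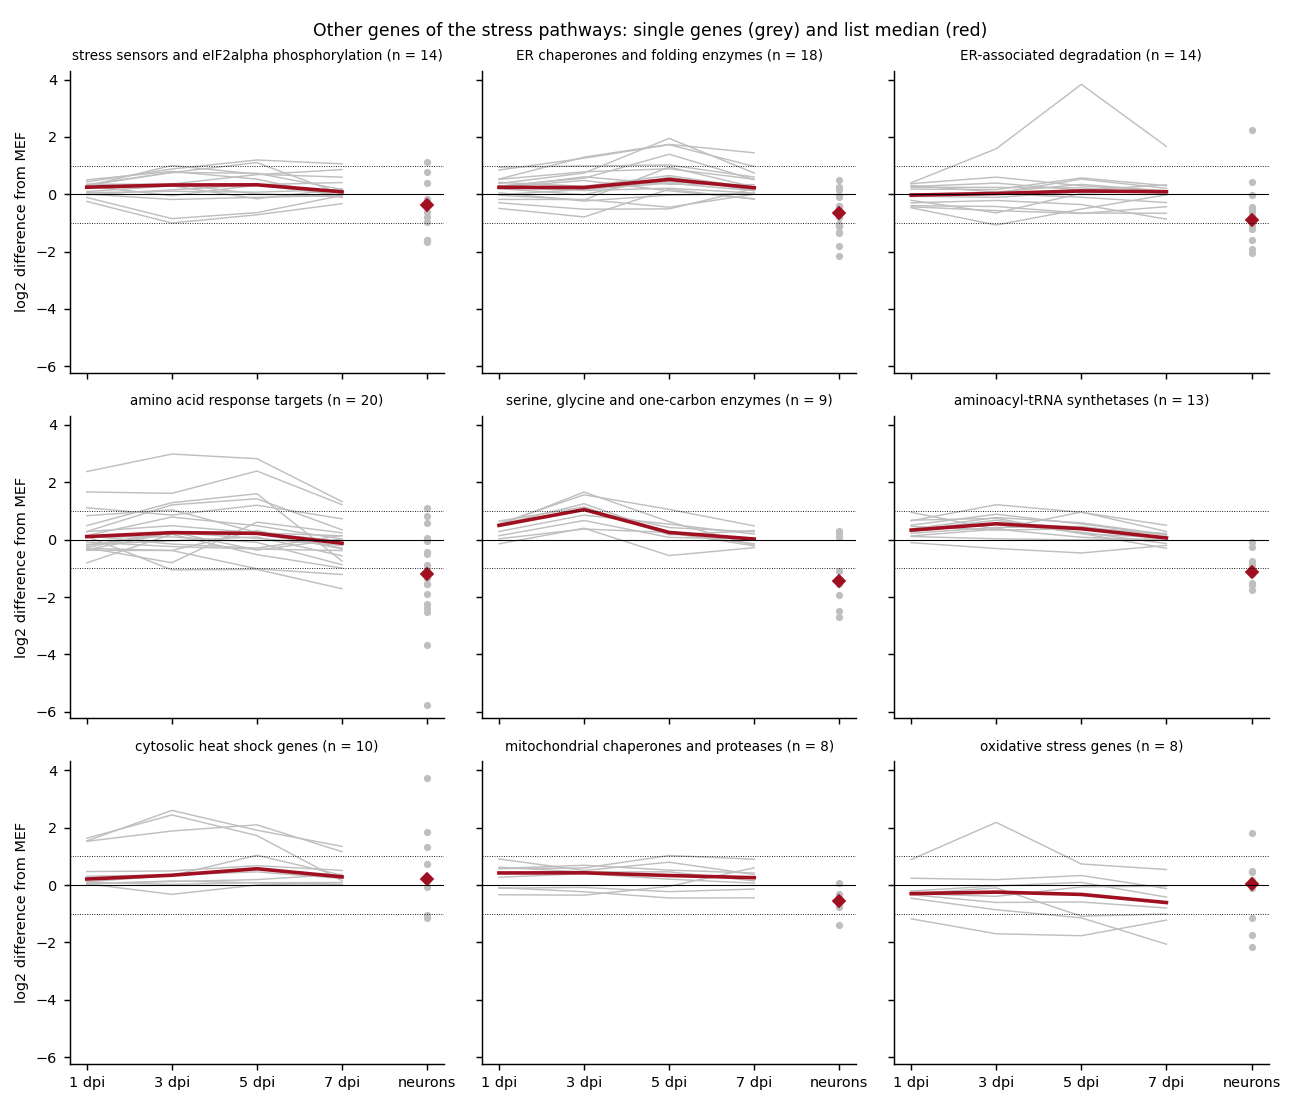
Log2 difference from MEF of the single genes of 9 pathway lists (grey) and of the list median (red) at 1, 3, 5 and 7 dpi and in neurons; lines join the Tet3 arrays, dotted lines mark 2-fold, and the lowest point in neurons in the amino acid panel, Fgf21, is a bound. The one-carbon median is highest at 3 dpi (1.05), the ER chaperone median at 5 dpi (0.52; at 1 dpi with median centring, 0.17), and Derl3 is the single line that reaches 3.83.

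For each member the gene with the most similar course was sought by the mean absolute gap over the 5 differences from MEF. The 14921 genes searched were well above background on all arrays. Members and symbols that look like clones or predicted genes were left out. Hsp90b1 and Hspa5 had the closest neighbours, Usp40 at a gap of 0.039 and Snhg6 at 0.045. Fam3c followed Asns at 0.052, Fbxl8 followed Xbp1 at 0.071 and Mdfic followed Atf4 at 0.0997. The courses of Ddit3 (Thy1, 0.148), Herpud1 (Asah2, 0.168), Trib3 (Hoxa7, 0.178), Chac1 (Syne3, 0.224) and Atf3 (Arhgap22, 0.240) had no closer gene among those searched. Because members were not searched, none could be returned as the nearest gene of another. Among the members alone the closest pair was Hspa5 with Hsp90b1 at 0.144, then Atf4 with Xbp1 at 0.175, and the member farthest from any other was Atf3, whose closest was Xbp1 at 1.24. These gaps rest on 6 arrays that share MEF as the reference and describe likeness of course only.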

How the data were processed

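RNA of 6 samples was measured on 1 Agilent one-colour mouse array each. The submitters' processing notes name Agilent Feature Extraction 11.0.1.1, and its column headings show that the deposited intensity used here had its background subtracted. A table deposited for all arrays gives log2 values; set against the scanner values, the authors had placed each array's 75th percentile near 0, with no centring of genes, and its column medians were -3.3033, -3.2344, -3.0026, -2.8991, -2.8638 and -2.5032 for MEF, 1, 3, 5 and 7 dpi and neurons. The software step behind that table is not stated there. Member differences in it were within 0.0348 of those below.

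Here log2 of the processed signal minus the array's 75th percentile was used, with outlier spots left out (39409 of 39429 probes kept). Of these, 27216 (69.1%) had a symbol through the printed accession and the RefSeq gene table, for 20652 genes. For the 5467 genes with several probes the brightest was used. A difference counted as measured if its probe was well above background on both arrays, as a bound if on 1, and was otherwise not used; 2-fold was the threshold, and background shares are over measured and bound differences. Replicate spots had a mean SD of 0.0925. The number of arrays limits the precision.

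The members and lists were chosen with earlier results of these data known. Named beside the members were the first 4 genes of each list, the furthest gene of each list in each direction, and the nearest gene in course to each member. Alternatives were median centring, quantile normalization, normexp on median spot signals (offset 50, limma 3.58.1 in R 4.3.3), the authors' table, the mean over probes, no filter and a 1.5-fold threshold. The calling was tested on data simulated from the MEF array, with planted changes larger than 2-fold and only the error of the scanner software. Calls near 2-fold and differences between scans, scalings or cultures were not tested by it. Python 3.11.15, numpy 2.4.6, pandas 2.3.3 and matplotlib 3.10.9 were used. Promoters were those of RefSeq, GRCm38.p6.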

Additional observations from a re-analysis of the deposited data

How the results depend on the processing

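Scaling was the choice that mattered most. Median centring shifted the members' median difference from MEF to -0.25 at 3 dpi, -0.17 at 5 dpi, -0.62 at 7 dpi and -2.50 in neurons. The medians of all genes were then -0.15, -0.26, -0.30 and -0.71. For 7 dpi over neurons the members' median became 1.78, beside 0.37 for all genes. Quantile normalization gave -1.41 for neurons, beside -0.11 for all genes. The number of members at least 2-fold above MEF at 5 dpi was 0 with median centring and 2 at a 1.5-fold threshold. From 3 to 5 dpi the number 2-fold lower was 1 after quantile normalization and 1 with normexp, and from 5 to 7 dpi it was 1 with normexp and 4 at 1.5-fold. The authors' table, no filter and the mean over probes changed no member's side of 2-fold, though the mean over probes turned the sign of Atf4 on the 4 Tet3 arrays (0.007 to 0.059 above MEF). Of 45 list medians, 18 changed sign with median centring and 1 after quantile normalization. Median centring shifts every gene of a comparison by the same amount, so those 18 changes leave each list's place against all genes as it was. The steps within 1 scan were counted after seeing the data. No paired analysis was possible because each group had 1 array, and no array could be left out for the same reason. With 1 array a group, the spread between cultures is unknown, so a difference near 2-fold may lie within it.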
